A study of Homo sapiens and Mus musculus with 14 samples.

Results

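SMARCAL1 knockout clone 2 of MDA-MB-436, an established human breast adenocarcinoma line, was compared with control cells of the same line by ATAC-seq, in which a transposase inserts adapters where DNA is open. Of the 14 samples in the series, 5 belong to this comparison, chosen by their labels: 3 control libraries of batch 1 and 2 clone 2 libraries of batch 2, with the genotypes Control and SMARCAL1 knockout. The labels call the replicates biological and name no treatment, and all 5 were grown in the same serum-supplemented medium. Clone 2 is 1 clone and shares its batch with no control library, so no value below separates the clone from its batch: the 2 cannot be told apart. The data are 2 peak lists, 1 per group, into which the replicates had been merged before deposit. With 1 list per group there is no replicate check, no test of the conditions could be made, and every interval below is a 95% interval that covers counting error only.

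SMARCAL1 is an ATP-driven enzyme of the SNF2 family that is brought to stalled replication forks by the single-strand binding protein RPA, where it anneals unwound strands and reverses forks. The title of the series names innate immunity and PD-L1, a ligand that restrains T cells and is the product of CD274. In open chromatin maps the strongest and most constant peaks usually lie at the promoters of active genes, while weaker peaks in introns and between genes include enhancers and vary more between samples. A peak present in a list says that reads were dense enough to be called there. A missing peak says that the call was not made, not that the DNA was closed.

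The promoters below carry the main patterns, and are shown so that the named genes can be followed through the results. Each stretch is the 250 bases before the annotated RefSeq start of transcription (GRCh38.p14, the build of the deposited coordinates), 5′ to 3′ on the gene's strand. Capitals mark letters found by exact search on both strands: CCAAT (NF-Y), GGGCGG (SP and KLF factors), CACGTG (E-box), CCGGAAG (ETS), GGAATG (TEAD), TGACGTCA (CRE) and a 10-base palindrome for NRF1. Of 15812 promoters of 300 bp, 36.3% hold the first, 58.5% the second, 8.87% the E-box, 14.2% the ETS letters, 1.76% those of NRF1, 11.7% those of TEAD and 2.59% the CRE. The first 4 promoters had a control peak with a high score and no clone 2 peak, and lie at chr12:116277694-116277943 on the minus strand, chr10:70403895-70404144, chr1:40373477-40373726 and chr17:48892537-48892786 on the plus strand.
MED13L: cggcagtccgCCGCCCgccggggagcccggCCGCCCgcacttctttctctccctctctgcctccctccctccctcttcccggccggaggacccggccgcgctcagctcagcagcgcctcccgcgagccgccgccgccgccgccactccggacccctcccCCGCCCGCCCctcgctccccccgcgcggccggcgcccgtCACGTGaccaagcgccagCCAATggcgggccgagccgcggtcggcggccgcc
EIF4EBP2: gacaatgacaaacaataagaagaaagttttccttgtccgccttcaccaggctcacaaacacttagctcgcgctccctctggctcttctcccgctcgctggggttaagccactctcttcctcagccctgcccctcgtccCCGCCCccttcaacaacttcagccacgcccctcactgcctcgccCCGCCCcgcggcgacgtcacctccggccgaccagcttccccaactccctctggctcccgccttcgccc
SMAP2: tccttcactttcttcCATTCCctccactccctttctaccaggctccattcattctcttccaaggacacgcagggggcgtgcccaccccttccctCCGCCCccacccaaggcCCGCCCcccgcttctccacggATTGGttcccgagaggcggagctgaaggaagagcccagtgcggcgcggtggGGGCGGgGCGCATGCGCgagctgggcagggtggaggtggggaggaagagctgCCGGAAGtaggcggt
ATP5MC1: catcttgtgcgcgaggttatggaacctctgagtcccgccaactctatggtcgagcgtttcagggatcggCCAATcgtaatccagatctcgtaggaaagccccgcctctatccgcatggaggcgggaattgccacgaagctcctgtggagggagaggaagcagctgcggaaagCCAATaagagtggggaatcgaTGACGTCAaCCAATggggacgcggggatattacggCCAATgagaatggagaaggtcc
The next 2 had a clone 2 peak and no control peak, at chrX:132219448-132219697 on the minus strand and chr2:15940300-15940549 on the plus strand.
RAP2C: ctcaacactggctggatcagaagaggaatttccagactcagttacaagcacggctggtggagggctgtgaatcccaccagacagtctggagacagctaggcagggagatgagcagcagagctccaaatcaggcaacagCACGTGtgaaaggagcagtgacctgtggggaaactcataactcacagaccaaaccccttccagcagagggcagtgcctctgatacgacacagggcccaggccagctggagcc
MYCN: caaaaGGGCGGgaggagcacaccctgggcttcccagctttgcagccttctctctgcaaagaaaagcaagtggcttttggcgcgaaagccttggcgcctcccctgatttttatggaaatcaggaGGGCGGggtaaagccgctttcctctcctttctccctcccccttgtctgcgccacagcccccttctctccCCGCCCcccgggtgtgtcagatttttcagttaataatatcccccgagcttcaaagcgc
The last 2, both on chromosome X, had a peak in each list and changed place most by score, CT83 upward (chrX:116462977-116463226, minus strand) and IL13RA1 downward (chrX:118727356-118727605, plus strand).
CT83: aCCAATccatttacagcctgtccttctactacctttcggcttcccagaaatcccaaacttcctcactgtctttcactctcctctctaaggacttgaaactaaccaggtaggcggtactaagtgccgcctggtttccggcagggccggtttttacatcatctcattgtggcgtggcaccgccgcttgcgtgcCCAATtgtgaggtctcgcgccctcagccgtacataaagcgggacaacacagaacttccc
IL13RA1: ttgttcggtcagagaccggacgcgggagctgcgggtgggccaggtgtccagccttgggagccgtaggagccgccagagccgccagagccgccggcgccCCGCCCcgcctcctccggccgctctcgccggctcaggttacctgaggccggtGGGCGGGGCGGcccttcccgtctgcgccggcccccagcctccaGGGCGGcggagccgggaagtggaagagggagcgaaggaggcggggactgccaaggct
ATP5MC1 is marked 4 times for NF-Y and once for the CRE, while the RAP2C stretch has 1 E-box and only 3 CpG dinucleotides, against 40 in MED13L. These matches describe the letters, not bound sites.

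The lists differed in length and peak width before any gene was looked at. The control list held 64806 peaks over 33.2 Mb with a median width of 399 bp, and the clone 2 list held 34572 peaks over 8.37 Mb with a median width of 200 bp. Scores recur at fixed values that follow −log10 of a Poisson tail at whole read pileups over a constant background, in 3 series in control and 2 in clone 2, as many as the libraries. Whether each series stands for 1 library was not checked. The fitted background was 1.97, 2.01 and 2.02 reads in the control series and 0.723 and 0.985 in the clone 2 series. Both clone 2 series were thus below all 3 of control. If the narrowest peak of each series is taken as the pileup window, these become 1.49, 1.62 and 1.76 reads per 100 bp in control. In clone 2 they become 0.676 and 0.904, and that window was assumed, not measured. The weakest peaks of these series stood 5.44 to 5.59 times over background in control and 9.13 and 12.4 times in clone 2. The series held only 2503, 3229 and 4035 of the control peaks and 620 and 2620 of the clone 2 peaks. Their lowest clone 2 scores were 7.11 and 6.00, while the clone 2 list goes down to 5.01. These are therefore not the weakest calls of the whole list. A score or percentile is therefore a value within its own list: where those of both lists are printed, their difference is not a change. Changes are read only from places among promoter peaks matched one to one. For gene lists and chromosomes, the number of missing or found peaks expected from the control scores is given.

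Promoters with a control peak were mostly kept in clone 2. A promoter is here the RefSeq window from 250 bp before to 50 bp after the start, known for 15812 protein-coding genes and for none on chromosome 8. A control peak overlapped it at 9058 genes, and at 2260 of them (25% of those with a peak, 24.1 to 25.9%) clone 2 had no peak over the window or over the control peak. These 2260 genes rest on 2080 distinct control peaks, because close and divergent genes share peaks. At 1120 of them clone 1, a second knockout clone of batch 1, had a promoter peak. With the control list trimmed to the length of the clone 2 list the number missing was 1318, and among control peaks above their median score 1171. Both settings also leave fewer genes with a control promoter peak, so these 2 numbers are not out of 9058. In clone 1, compared with the same control list, 1632 of the 9058 genes (18%) lacked the peak.

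The genes that lacked the peak had low control scores, with a median of 6.32 against 11.4 at the 6798 genes that kept it. In the weakest decile of promoters by control score 78.8% were without a clone 2 peak, in the fifth decile 17.5%, in the eighth 0.773% and in the strongest 0.331%. The share therefore fell with control score over the first 9 deciles, to 0.110% in the ninth. The strongest decile had 3 such genes of 906, all in 1 cluster of near-identical copies on chromosome 7.

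**Figure D1:**
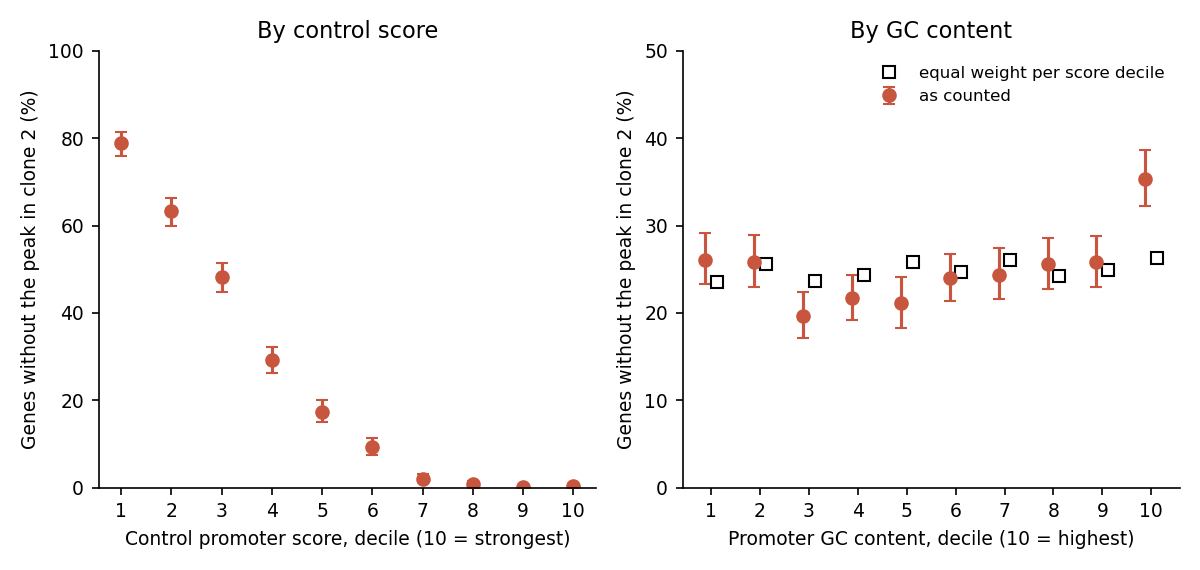
Percent of genes with a control promoter peak that had none in clone 2, by decile of control score (left) and of promoter GC content (right). Filled points are counts with exact binomial 95% intervals and open squares give each score decile equal weight. Absence falls from 78.8% to 0.331% with score. By GC the highest decile stands at 35.4%, and at equal score all deciles lie between 23.5% and 26.3%.

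Among single-copy genes, the strongest control promoter without a clone 2 peak was that of MED13L (chromosome 12, gene 115958576 to 116277693), a subunit of the kinase module of Mediator. Its control peak (116277160 to 116278482) had a score of 14.6, above 92.3% of the control list, and clone 1 had a promoter peak at 9.04. EIF4EBP2 (chromosome 10, 70404145 to 70428618), a repressor of cap-dependent translation, followed at 14.5, and is the 1 gene of the 12 named here that also had no promoter peak in clone 1. ERMAP, which carries the Scianna blood group antigens, and SVBP, the partner of the tubulin-trimming vasohibins, start close together on chromosome 1 and shared 1 control peak at 13.8. SMAP2 (chromosome 1, 40344834 to 40423326), a GTPase activator in vesicle traffic, was at 13 and ATP5MC1 (chromosome 17, 48892787 to 48895871), for the c subunit of mitochondrial ATP synthase, at 12.7. The clone 1 scores at ERMAP and SVBP, SMAP2 and ATP5MC1 were 7.70, 7.76 and 6.79. These 6 promoters stood between the 89.3 and 92.3 percentiles of the control list. Of all promoters in the 2 score deciles they belong to, the seventh and the eighth, 2.10% and 0.773% were missing.

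The other 6 of the 12 were LOC genes on chromosome 7 that sit in repeated blocks. LOC124901652, LOC124901650, LOC124901647, LOC124901798 and LOC124901649 lie between 63750531 and 63767812, and LOC124901637 at 56814235 to 56815479. Their control scores were 24.2, 23.5, 23.03, 15.9, 13.01 and 13.7 in that order, and their clone 1 scores 28.4, 21.5, 27.6, 17.4, 13.6 and 13.2. Near-identical copies share reads, so a peak in any 1 copy is uncertain. The cluster as a whole is described further down.

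Promoter peaks present in clone 2 and not in control were few. Of 6754 genes without a control promoter peak, 66 (0.977%, 0.757 to 1.24%) had one in clone 2 that overlapped no control peak, from 63 distinct peaks. Their clone 2 scores had a median of 8.54 and a maximum of 13.1, against a median of 12.1 over all clone 2 promoters with a peak. The number was 295 with the control list trimmed to the length of the clone 2 list, and 5 when only clone 2 peaks above their median score were counted. The 295 include genes that were left without a control peak by the trimming itself. At 19 of the 66 clone 1 also had a promoter peak. The share with a clone 1 peak over all 6754 genes is not given here, so no agreement between the clones is read from this.

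The highest was RAP2C on chromosome X, a RAS-like GTPase, whose clone 2 peak (132219421 to 132219554) had a score of 13.1 at the 68.4 percentile of the list, with the nearest control peak 989 bp away. MYCN on chromosome 2, a MYC family transcription factor, followed at 12.6, with a clone 1 score of 5.98 at the same promoter. The MYCN peak ends before the start (15940160 to 15940478), and a control peak begins 331 bp beyond it inside the gene, so with promoters taken as 1000 bp either side MYCN has a peak in both lists. RASGRF2 on chromosome 5, an exchange factor for RAS and RAC, was at 12.5. MRPL28 and MRPS2, subunits of the mitochondrial ribosome on chromosomes 16 and 9, were at 11.8 and 10.5. GPM6A, a neuronal membrane glycoprotein, SCP2, a sterol carrier protein, and EVA1B were at 11.01, 10.95 and 10.9. The remaining named genes were TMPRSS15, the gut protease enteropeptidase, at 10.8, MON1A, a factor of endosome maturation, at 10.6, QNG1, which frees queuine from its nucleotides, at 10.5, and PORCN, which acylates Wnt ligands, at 10.3. Of these 12 genes, clone 1 had a promoter peak at MYCN, GPM6A, SCP2, QNG1 and MRPS2. TMPRSS15 stands out by sequence, with 31.7% GC and no CpG in its window, while the other 11 have between 57.3% and 77.0% GC.

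A promoter peak does not check a knockout, and no other measure of the target is held here. The SMARCAL1 promoter (chromosome 2, gene 216412484 to 216483053) had a peak in both lists, at the 94.8 percentile in control and the 71.0 percentile in clone 2. CD274 had a promoter peak at the 93.4 percentile in control and the 90.2 percentile in clone 2, and among matched promoters it stood 10.2% of the list higher in clone 2, at place 745 against 1192. SMARCAL1 stood lower, at place 1752 against 977. Over all 4389 matched promoter peaks the median move in either direction was 11.6% of the list. The move of CD274 was below that median.

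A total of 41 gene lists, with 801 of 1031 genes in the promoter table, were read against the 25% of all genes and against the number expected if each member were missing as often as all promoters of its control score decile. For 39 lists the exact binomial interval of the missing share included the share over all genes. The cytosolic ribosomal proteins were above it, with 14 of 29 promoters missing (48.3%, 29.4 to 67.5%) against 10.7 expected from their scores. RPL14, RPL18, RPL4 and RPS19 were the strongest of those missing, with control scores from 8.39 to 7.14 and a clone 1 peak at each. RPS7, RPS12, RPS6 and RPS23 kept theirs, with clone 2 scores from 24.9 to 14.4. The hypoxia response genes were below it, with 0 of 13 missing (up to 24.7%) against 1.84 expected. The median control score was 8.12 in the first list and 13.2 in the second, where the middle of all promoters with a peak lies at 9.62. With control trimmed to the length of the clone 2 list, the ribosomal share was 33.3% (14.6 to 57.0%). The hypoxia share remained 0 with an upper limit of 26.5%. The 25% belongs to the full control list and the share over all genes after trimming is not given here. Neither list is therefore called above or below all genes in that setting. Among the hypoxia genes the mitophagy receptor BNIP3 stood at the 97.7 percentile of clone 2, the collagen hydroxylase P4HA1 at the 80.1, the oxygen sensor EGLN3 at the 78.3 and HIF1A itself at the 69.6.

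The lists closest to the study's question had peaks in both states. Of 7 AP-1 factors with a control peak 4 had none in clone 2 (3.74 expected): FOSL2, FOS, MAFF and JUNB, at control scores of 7.48, 5.74, 5.73 and 5.24. JUN (17.5 in control, 17.3 in clone 2) and JUND (8.29 and 6.57) kept theirs, and MAFG moved up by 44.8% of the matched list. The NF-kB pathway lacked 8 of 16 (4.15 expected), among them NFKB2, the gene of the p52 precursor, at 9.16, the adaptor TRAF2 at 8.56, the kinase CHUK at 7.73 and the co-regulator BCL3 at 7.31. REL, BIRC3, BIRC2 and NFKB1 kept peaks at clone 2 scores of 18.5, 15.7, 13.9 and 12.9. Of 12 nucleic acid sensing genes 3 were missing (3.40 expected), the RNA sensing adaptor MAVS at 6.62, the RNA-editing enzyme ADAR at 6.61 and the kinase IKBKE at 6.02, whereas SAMHD1, IFIH1 and TRIM25 had clone 2 scores of 14.1, 12.3 and 10.96.

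Interferon-stimulated genes lacked 8 of 18 (6.59 expected). IFI44L, PARP14, IFIT5 and LGALS3BP were missing in clone 2 and had no promoter peak in clone 1 either. ISG20, DDX60, RSAD2 and IFI44 kept theirs. In clone 2 DDX60 stood 34.6% and ISG20 1.94% of the matched list higher, and IFI44 5.95% lower. The checkpoint ligands lacked 4 of 8 (3.49 expected), namely TNFSF9, NECTIN2, PVR and CD276 with control scores of 6.63 to 5.51, and kept NT5E, CD274, CD47 and VSIR. Antigen processing lacked 1 of 9 (1.29 expected), the chaperone CALR at 7.07.

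Genes of fork repair, replication and chromatin were read in the same way. Fork remodelling and protection lacked 6 of 33 (5.25 expected), the strongest being FANCA at 7.65, RAD51D at 6.41, ATRIP at 6.17 and FANCE at 6.11. BARD1, RECQL, FANCL and FANCB had scores over 23.9 in control and over 24.8 in clone 2. The replication machinery lacked 10 of 33 (7.88 expected), with the GINS subunit GINS2 at 11.5 and the topoisomerase TOP2A at 9.55 the strongest, and ORC3, MCM3, RFC5 and POLA1 kept. The SWI/SNF complexes lacked 6 of 16 (6.07 expected), among them BICRA, BRD7, SMARCD2 and SMARCB1, while SMARCA2 kept a peak at the 98.4 percentile of clone 2. Other remodellers lacked 7 of 20 (5.80 expected), MTA2 at 10.6 being the strongest, and Polycomb and histone methylation 7 of 23 (7.28 expected).

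Lists of general cell function spread on both sides of their expected numbers. Proteasome subunits lacked 2 of 23 (4.51 expected), PSMD12 and PSMC5, and splicing factors 2 of 25 (4.58 expected), RBM5 and U2AF1. The p53 targets lacked 1 of 13 (1.37 expected), BAX at 6.62, with SESN1, XPC, PMAIP1 and MDM2 kept, and the cell cycle genes 3 of 19 (3.72 expected). Oxidative phosphorylation lacked 7 of 24 (4.58 expected), with SDHD at 9.46 and UQCRC2 at 9.05 the strongest. Transcription machinery lacked 9 of 24 (6.93 expected), among them POLR2A, the largest RNA polymerase II subunit, at 7.45. The mitochondrial ribosomal proteins lacked 9 of 31 (8.42 expected) and gained the 2 named above. Of their 19 matched members 2 moved up by over 25% of the matched list, MRPS17 by 38.4%, and 3 moved down by over 25%. The housekeeping genes lacked 4 of 16 (4.95 expected): TFRC, POLR2A, ACTG1 and TUBB.

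Marker promoters of cell types were counted as well. Control peaks lay over 6 of 11 basal breast genes, 4 of 15 luminal genes and 5 of 13 mesenchymal genes in the promoter table. Over all genes the number was 9058 of 15812, so these counts do not identify the line. Clone 2 lacked 1 in each of the 3 lists, where 0.685, 1.35 and 0.873 were expected: the laminin receptor ITGA6, the unfolded protein response factor XBP1 and THBS1. TWIST2, a mesenchymal transcription factor, had a promoter peak at 9.51 in clone 2, one in clone 1 and none in control. Of the markers of cells not cultured here, control had a peak at 2 of 9 leukocyte genes (CORO1A and CD14), at 1 of 5 melanocyte genes (DCT) and at 1 of 3 endothelial and fibroblast genes (KDR). In the order named, their peaks stood at the 51.2, 81.9, 98.0 and 93.1 percentiles of the control list. Clone 2 lacked CORO1A among these 4, with 0.725 expected for the leukocyte genes.

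**Figure D2:**
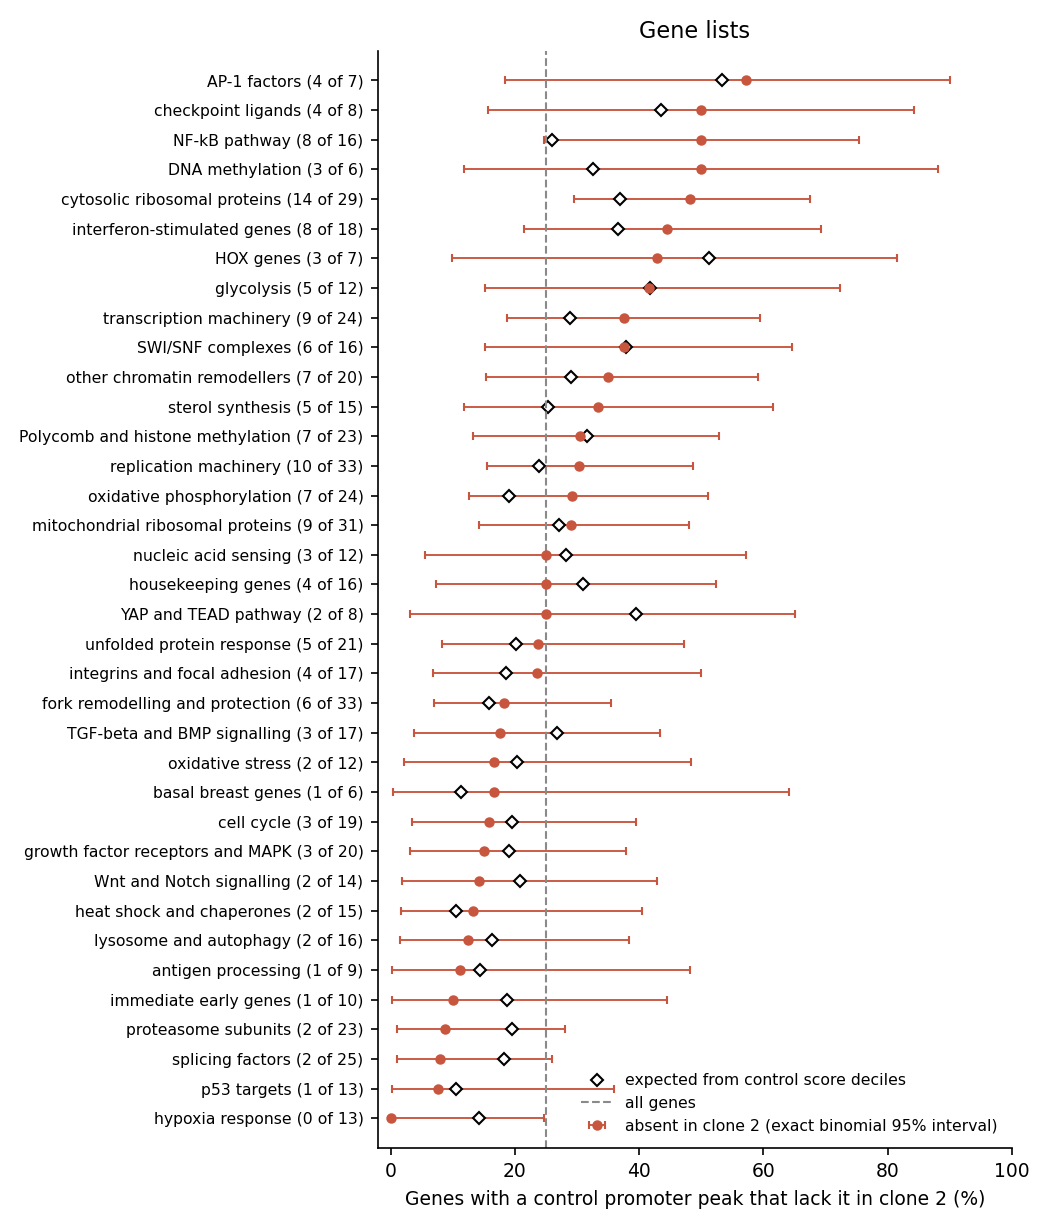
Gene lists with 6 or more control promoter peaks. Points give the percent of those promoters without a clone 2 peak, with exact binomial 95% intervals, diamonds the percent expected from the members' control score deciles, and the dashed line the 25% of all genes. The interval of the cytosolic ribosomal proteins lies above the line and that of the hypoxia genes just below it.

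Where both lists had a promoter peak, its place within the list was compared. A total of 4389 promoter peaks matched one to one, and each was given a place from 1, the strongest, in either list. In clone 2, 478 (10.9%) stood higher by over 25% of the list and 438 (9.98%) lower. The median change of place in either direction was 11.6% of the list. Of the 438 peaks in the top decile of control, 295 were also in the top decile of clone 2. The Spearman correlation over the 4389 peaks was 0.764, given as a description since peaks of 1 sample are not replicates.

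The furthest upward was CT83 on chromosome X, a cancer/testis antigen gene, from place 3937 in control to 447 in clone 2. GRM3 on chromosome 7, a metabotropic glutamate receptor, went from 3659 to 224. SMIM10L2A on chromosome X went from 4341.5 to 1136, and PON2 on chromosome 7, a lactonase of the paraoxonase family, from 3966 to 858. UTP20, a factor of small ribosomal subunit assembly, went from 3634 to 669, and SLC22A17, a lipocalin receptor, KCNA4, a potassium channel, and TRABD2A, a protease acting on Wnt, moved up by 67.4%, 65.0% and 64.8% of the list. Clone 1 had a promoter peak at 6 of these 8, not at SMIM10L2A or SLC22A17. All 8 had control scores of at most 7.61 and places from 3634 on among the 4389 matched promoter peaks of control.

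The furthest downward was IL13RA1 on chromosome X, a receptor chain for interleukin 13, from place 840 to 3798. TECPR1 on chromosome 7, an autophagy factor, went from 1409 to 4128, and HSPA4 on chromosome 5, a co-chaperone of the HSP110 family, from 1408 to 4109. CLCN6, a chloride transporter of late endosomes, moved down by 60.5% of the list, NUMB, an inhibitor of Notch signalling, by 60.2% and COX6A1, a cytochrome c oxidase subunit, by 59.4%. The shared peak of FMC1, an ATP synthase assembly factor, and LUC7L2, a splicing factor, moved down by 58.4%, and MEAF6, a subunit of histone acetyltransferase complexes, by 58.3%. Clone 1 had a promoter peak at every 1 of these. They kept a peak in clone 2 with scores of 6.99 to 9.41, below the 12.1 median of its promoters.

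**Figure D3:**
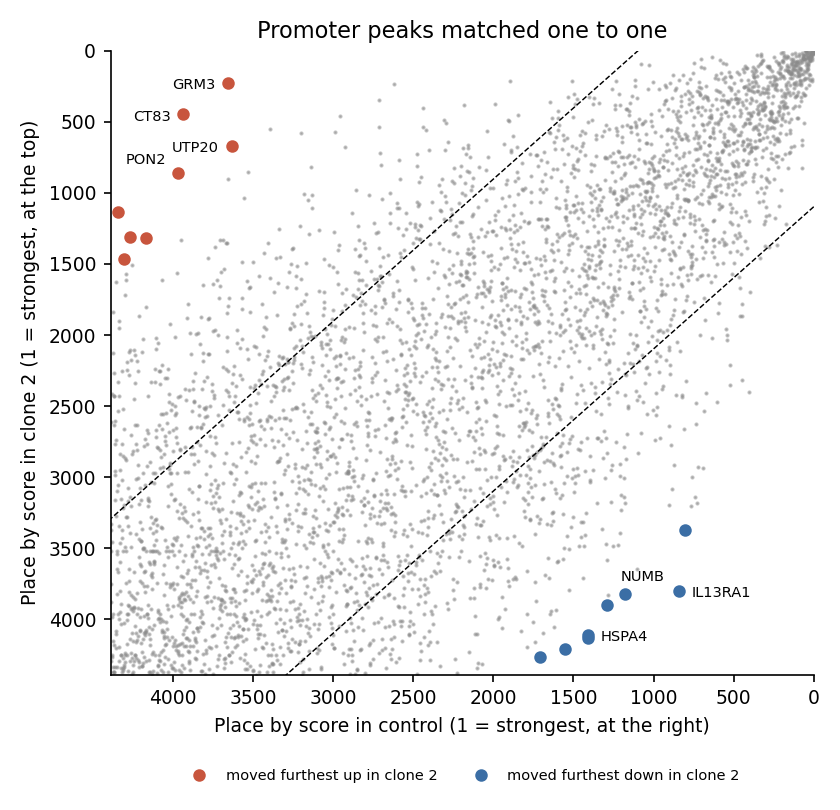
Place by score of 4389 promoter peaks matched one to one, in control (horizontal) and clone 2 (vertical), with 1 the strongest at the upper right. Dashed lines mark moves of 25% of the list. The coloured points are the 8 peaks that moved furthest in each direction, CT83 and GRM3 at the upper left and IL13RA1 at the lower right.

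Chromosome X had the highest share of upward moves of the 22 chromosomes compared. Of its 211 matched promoter peaks 41 stood higher by over 25% and 5 lower (19.4% and 2.37%), against 10.9% and 9.98% of all. Chromosome 1 had the opposite balance, with 35 higher and 71 lower of 488. The median move was 5.83% of the list upward on X and 3.61% downward on 1.

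Peaks that were in both lists were narrower in clone 2. Of 25132 pairs matched one to one over all regions, the median width was 573 bp in control and 213 bp in clone 2, the clone 2 peak covered a median of 40.6% of the control peak, and it lay wholly inside in 94.0%. The centres were a median of 51.5 bp apart. A further 2631 control peaks held at least 2 clone 2 peaks, up to 5. Around the starts of the 9058 genes, control coverage was highest at the start itself, 97.3% of genes, and stayed over 50% of that height from 475 bp before to 525 bp after it. The genes were chosen for a control peak over the promoter window and not for a clone 2 peak. Near-complete control coverage is fixed by that choice, so its height is not compared with that of clone 2. Clone 2 coverage peaked 50 bp before the start at 59.2% of genes, and its corresponding span ran from 250 bp before to 75 bp after. The difference in span was therefore larger on the transcribed side. The part of background and of the authors' settings in these widths was not tested.

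**Figure D4:**
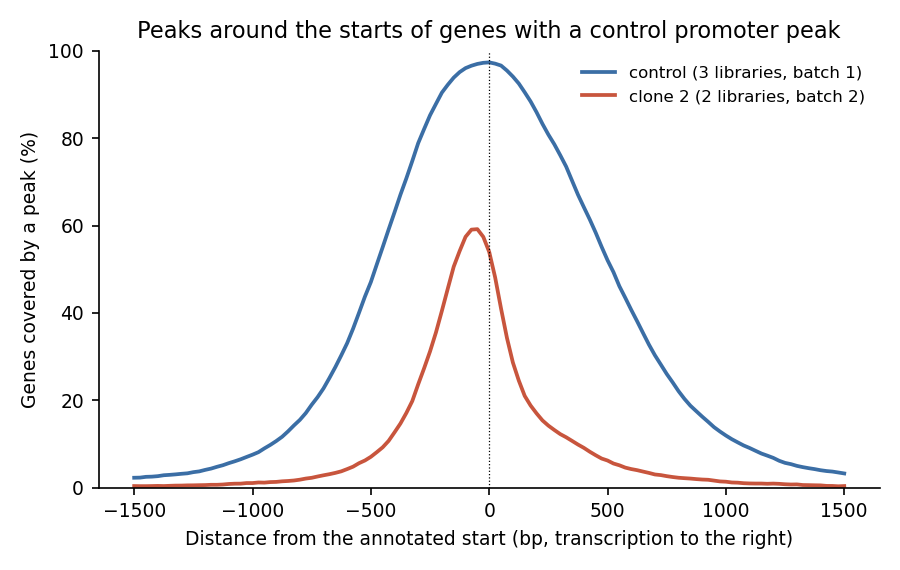
Percent of the 9058 genes with a control promoter peak that were covered by a peak of each list, by distance from the annotated start in bp, with transcription to the right. Control reaches 97.3% at the start and clone 2 59.2% at 50 bp before it, with a shorter extent past the start. The height of the control curve is fixed by the choice of genes.

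Peak position was described next, over 58183 control peaks that could be placed (5132 on chromosome 8 or near genes without a promoter entry were set aside). Clone 2 had a peak over 74.3% of 8183 promoter peaks, 35.9% of 22572 peaks inside gene bodies and 39.5% of 27428 peaks outside genes. In the other direction, 1.10% of clone 2 promoter peaks had no control peak, against 11.6% in gene bodies and 15.4% outside. Promoter peaks were stronger (median control score 9.49, against 5.95 in gene bodies and 5.94 outside) and wider (1015 bp against 351 and 349 bp). With equal weight for each score decile, promoter peaks were found 6.01 points more often than the others (4.69 to 7.32). With width held equal as well, the difference turned to -3.89 points (-6.33 to -1.45). This gives equal weight to 47 groups by score and width, with shares of 35.7% for promoter peaks and 39.6% for the others. Narrow promoter peaks, though fewer, then count as much as wide ones, and the interval can be too narrow. No direction is therefore read from this difference. Gene body peaks were found less often than those outside, with differences of -3.06 points (-3.71 to -2.42) at equal score and -3.02 points (-4.44 to -1.59) with width too.

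Chromosomes differed in how many control peaks clone 2 contained. The number found, divided by the number expected from the peaks' score deciles, was 0.626 on chromosome 22 (0.522 to 0.742), 0.774 on 17, 0.811 on 19, 0.847 on 16 and 0.879 on 1. It was highest on X at 1.21 (1.16 to 1.25), on 18 at 1.17 and on 4 at 1.10. In clone 1 the same ratios were 1.05 on 22, 1.06 on 17, 1.17 on 19, 1.00 on 16, 0.965 on 1, 0.965 on X, 1.02 on 18 and 0.998 on 4. Among genes, the promoter peak was missing in clone 2 at 62.7% of 150 genes on chromosome 22 and 51.3% of 437 on 17, against 10.6% of 341 on X and 10.3% of 146 on 18. In clone 1 these shares were 46.7%, 32.0%, 19.1% and 13.01%, and the median control scores of the genes were 6.55, 7.31, 9.48 and 10.6. The 3 lowest chromosomes, 22, 17 and 19, have 72.4, 73.1 and 115 protein-coding genes per 100 control peaks, against 33.4 on X and 18.7 on 18, while chromosome 1 has 30.1 at a ratio of 0.879 and chromosome 11 has 48.6 at a ratio of 1.02. For promoters alone the ratio on 22 was 0.749 at equal score and 0.750 with GC tertiles held equal too, and on X 1.18 both ways.

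**Figure D5:**
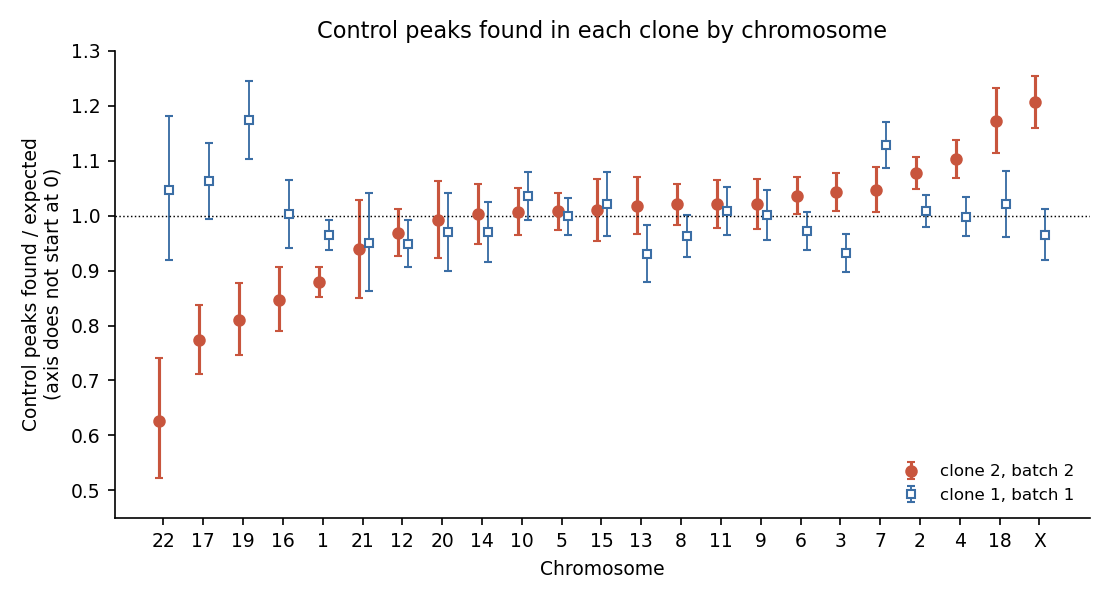
Control peaks found in each clone divided by the number expected from control score deciles, by chromosome, with exact binomial 95% intervals for counting error; the axis does not start at 0. Clone 2 (filled) runs from 0.626 on chromosome 22 to 1.21 on X, while clone 1 (open) runs from 0.931 on 13 to 1.17 on 19.

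Smaller windows were then counted. Windows of 5 Mb were kept where control had 40 peaks or more. Over 556 of them the interval of the ratio lay below 1 in 80 and above 1 in 91. All 7 windows of chromosome 22 were under 1, while 22 of 24 on X and 14 of 15 on 18 were over 1. The interval excluded 1 in 5 of these windows on 22, 6 on X and 4 on 18. The highest window was X at 130000001 to 135000000, at 1.84 (32 of 41 peaks found), which also holds RAP2C. The lowest was chromosome 7 at 60000001 to 65000000, at 0.296 (6 of 50 found), which spans the repeated LOC cluster and has 25 genes. The lowest 20 windows held a median of 69.5 protein-coding genes and the highest 20 a median of 14, against 25 over all windows. Of the lowest 20, 12 lay on chromosomes 1, 16, 17, 19 and 22, which hold 47, 15, 17, 10 and 7 of the 556 windows. These are the chromosomes with the lowest ratios above, from the same peaks, so this count is not a separate result.

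Base composition and sequence motifs were read with and without score held equal. The promoter peak was missing in clone 2 at 26.1% of genes in the lowest GC decile, at 19.6% to 25.9% in the next 8 and at 35.4% in the highest, which also had the lowest control scores (median 8.17). With equal weight per score decile all 10 lay between 23.5% and 26.3%. The share found in the highest decile minus that in the lowest was -2.77 points (-5.68 to 0.143) at equal score and -5.01 points (-8.48 to -1.55) with peak width held equal too. Holding width equal splits these genes into many small groups of equal weight. A group with all or no genes found adds no error, so the second interval can be too narrow and no difference is read from it. Promoters with CCAAT were missing less often, 20.6% against 27.6% without it, and at equal score the difference was -0.43 points (-1.90 to 1.04). Of 13 motifs searched, 1 had an interval that excluded 0 at equal score. That was a 10-base NF-kB motif, with 30.9% missing against 24.4% (6.42 points, 0.809 to 12.03), from 15 missing of only 53 promoters. With so few promoters in each score decile this interval is too narrow, and no difference is read from it. As counted, 28.3% were missing (16.8 to 42.3%) against 24.9% without the motif.

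The strongest control peaks absent from clone 2 included arrays of repeated genes. The highest on the primary chromosomes, with a score of 29.1, was at 228620722 to 228621208 on chromosome 1 in the array of 5S ribosomal RNA genes. Over the 17 RNA5S genes there (228610266 to 228646158), control had 10 peaks, clone 1 had 10 and clone 2 had none. Over the cluster of 12 LOC genes on chromosome 7 (63750531 to 63767812), control had 12 peaks, clone 1 had 12 and clone 2 had none. Of the 56 absent peaks in the top decile of control, out of 6382, clone 1 had 48. Of all 6382 it had 99.1%. On contigs outside the primary chromosomes, clone 2 had 23.01% of 1491 control peaks and clone 1 had 47.8%. On the primary chromosomes these shares were 43.4% and 42.0%. Both groups of batch 1 had peaks over these 2 arrays and the 1 group of batch 2 had none.

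Clone 2 peaks outside the control list were weak and mostly outside genes. On the primary chromosomes 3762 had no control peak, and of those that could be placed 60.8% lay outside genes, against 44.7% of all clone 2 peaks. They had a median score of 9.15 against 11.004 for the whole list, and 52 of them reached its top 2 deciles. The highest, at 22.3, was at 104312966 to 104313123 on chromosome 6, 414971 bp from the ubiquitin ligase gene HACE1, and clone 1 had a peak there at 5.17. The next were 214482 bp from TLL1, a metalloprotease gene, at 22.1, 125437 bp from CRBN, the receptor of thalidomide analogues, at 21.4, and 226037 bp from KLHL1 at 20.3. SKOR1, a neural co-repressor gene, had one 5467 bp away at 20.3, and MAP2, a neuronal microtubule gene, had one in its body at 20.01. Clone 1 had a peak at 4 of the 8 strongest such regions: those near HACE1, CRBN and CDH6 and the one in MAP2. The share with a clone 1 peak over all such regions is not given here.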

How the data were processed

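ATAC-seq of MDA-MB-436 cells was used as 2 deposited peak lists (control, 3 merged libraries; SMARCAL1 knockout clone 2, 2 merged libraries), with the clone 1 list beside them. Per the submitters' processing notes the tools were HISAT2, MACS2 and ChIPseeker and the builds mm10 and hg38. No tool version or setting is stated in the sources used here. Each deposited line gives a chromosome, start, end and a score that the authors did not label; its values follow −log10 of a Poisson p-value, so the unit was inferred from the deposited values. No read counts are held here, so library depth is not known. The backgrounds recovered from a part of the scores are not a measure of it, as the pileup window was assumed. Coordinates are printed counted from 1.

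Peaks matched by 1 bp of overlap (bounds compared in Python 3.11.15 with numpy 2.4.6 and pandas 2.3.3), promoters were RefSeq windows of GRCh38.p14, and differences at equal score gave each of 10 control score deciles equal weight. Shares carry exact binomial 95% intervals (scipy 1.17.1), which cover counting error only. The scripts were tested on simulated lists. Named genes were SMARCAL1 and CD274, the 12 strongest promoters absent in clone 2 and the 12 strongest present only there, the 8 matched promoters that moved furthest each way, and within each gene list up to 4 missing and 4 kept members of highest score. Alternatives were a stricter overlap, lists of equal length, peaks above the median score, a 1000 bp window, width held equal and a 40% move. Members, lists and rules were chosen with earlier results of these data known. The mouse libraries were not analysed here.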

Additional observations from a re-analysis of the deposited data

Results flagged for a closer look

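Chromosome 19 was high in one knockout clone and low in the other: control peaks were found at 0.811 of the expected number in clone 2 and at 1.17 in clone 1. On chromosome 3 the order was the reverse, 1.04 in clone 2 and 0.932 in clone 1. In both cases the 2 clones lay on opposite sides of 1 with intervals that excluded it, the clones share their control list, and the difference itself was not tested.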

How the results depend on the processing

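No paired analysis was possible because each group is 1 merged list without replicate columns, and for the same reason no library could be left out. With 1 bp of overlap 57.1% of control peaks were absent in clone 2 and 11.1% of clone 2 peaks in control. With the control list trimmed to the length of the clone 2 list, 31.5% of control peaks were absent in clone 2 and 23.3% of clone 2 peaks absent in control, with 1318 promoters missing and 295 gained. Among peaks above their list's median score these values were 29.0%, 4.92%, 1171 and 5. Both settings leave fewer genes with a control promoter peak than the 9058 of the full list. The 295 gained include genes that lost their control peak through the trimming. With promoters of 1000 bp either side, the promoter difference at equal score was 2.14 points. With width held equal it was -3.89 points, and the GC difference (highest minus lowest decile, found) was -5.01 (-8.48 to -1.55) against -2.77 (-5.68 to 0.143). In both width settings small groups count as much as large ones, so the counting error can be understated. With moves of over 40%, 133 promoter peaks were up and 102 down. All 24 named missing and gained genes kept their state with the stricter overlap and with lists of equal length, 23 with the wider window (not MYCN), and 17 above the median score, where SCP2, EVA1B, TMPRSS15, MON1A, QNG1, MRPS2 and PORCN were below it. Of the 41 gene lists, 41 kept a share within the interval first given with the stricter overlap and with the wider window, 38 with lists of equal length and 36 above the median score; the cytosolic ribosomal proteins were at 33.3% (14.6 to 57.0%) in both of the last. The chromosome 22 ratio stayed between 0.586 and 0.706. The hypoxia list remained at 0% missing with lists of equal length and above the median score, with an upper limit of 26.5%. Background was lower in both clone 2 series than in the 3 of control, and its part in the missing peaks of low control score was not tested.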
